A study of Homo sapiens with 66 samples.

Results

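The G2/M genes are 45 protein-coding genes that cells express late in the cell cycle, between the end of DNA replication and the division of the cell. They were chosen by symbol, as known parts of the mitotic machinery, and not by their values here. They are 45 of 57992 gene identifiers counted, and all 45 had enough reads to be tested in all 11 cell lines. The series holds RNA from 11 human cell lines of acute myeloid leukemia (AML), namely MOLM-13, KASUMI-1, THP-1, MV-4-11, F-36P, OCI-AML3, NB-4, HL-60, NOMO-1, MONO-MAC-6 and OCI-AML2. Each line was given media alone (untreated) or etoposide at the concentration that is the IC50 of that line, for 24 hours, and each of the 22 groups has 3 libraries, described as biological replicates, with cells of 3 wells pooled for each RNA. Etoposide is a poison of topoisomerase II, which leaves the enzyme bound to broken DNA. Since the concentration was set separately for each line, a difference between lines cannot be told apart from a difference in concentration. Comparing the 2 treatments within a line shows how the RNA of these genes changed under the drug.

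Cells enter mitosis when cyclin B and CDK1 become active, and the kinases PLK1, AURKA and AURKB then drive spindle assembly, chromosome attachment and division. Their genes share a program: the MuvB complex, together with MYBL2 and FOXM1, switches them on in G2 through a short element called the cell cycle homology region, often beside CCAAT boxes bound by NF-Y. CDKN1A (p21) inhibits cyclin-dependent kinases, and MuvB in the DREAM complex then keeps the same promoters off. In RNA from whole cultures, fewer cells in G2 and mitosis and less RNA of these genes per cell cannot be told apart.

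Reads on genes numbered 17997404 to 24101670 per library (median 20241014). Levels are given as CPM, counts relative to the size of the library, after TMM normalization within a line, as values in the 3 untreated and the 3 etoposide libraries. A gene rose or fell where edgeR's quasi-likelihood test gave a Benjamini-Hochberg adjusted p below 0.05 over all genes tested in that line. The numbers of genes in each line with a fold change above 2 as well, the rule of the study, are given too. The 6 myeloid markers were at 1 CPM or more in every untreated line except F-36P, where 5 of 6 were and where the 6 erythroid markers summed to 5570 to 7400 CPM before and 4030 to 4450 CPM after etoposide. The summed myeloid markers went in MOLM-13 from 2330 to 3170 CPM before to 5990 to 6960 CPM after, with 4 of 6 higher and 1 lower. In KASUMI-1 they went from 25600 to 29000 CPM to 13200 to 14700 CPM and in NB-4 from 15600 to 18400 CPM to 4620 to 5180 CPM, where MPO made up most of the sum and fell, while 4 of 6 markers rose in KASUMI-1 and 3 of 6 in NB-4. Genes with at least 1 read numbered 19654 to 19932 before and 24884 to 25445 after etoposide in KASUMI-1, and 20999 to 21285 before and 29738 to 30168 after in F-36P. The mitochondrial share of reads went from 5.17 to 5.68% before to 7.07 to 7.44% after in MOLM-13, and from 6.26 to 6.43% to 7.11 to 7.34% in KASUMI-1. The part of these shifts in the results was not tested.

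The G2/M genes did not move as 1 block after etoposide. MOLM-13 lost nearly all of them, KASUMI-1 gained most of them, and the other lines lowered some while raising or keeping others. In MOLM-13, 44 of the 45 fell, where 28.1% of all genes tested fell, and 0 rose, where 28.1% of all genes rose. In KASUMI-1, 37 rose, against 31.5% of all genes, and 1 fell, against 28.6%. The median log2 fold change over the 45 genes was -1.11 in MOLM-13 and 0.74 in KASUMI-1, beside a median of 0 and 0.03 over all genes tested.

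Between these ends lay the other lines. In THP-1, 27 fell (16% of all genes tested fell) and 0 rose (16.1%), with a median log2 fold change of -0.50. In MV-4-11, 29 fell (30.4%) and 6 rose (33.5%), with a median of -0.37. In F-36P, 18 fell (25%) and 2 rose (35%), with a median of -0.33, but scaling libraries by size alone gave 14 that fell, 6 that rose and a median of -0.07. In OCI-AML3, 16 fell (17.7%) and 0 rose (22.4%), with a median of -0.28, which was -0.12 without etoposide replicate 3, while 2 then rose. Where 0 rose by edgeR, the genes that rose at an unadjusted p below 0.05 numbered 0 in MOLM-13, 1 in THP-1 and 1 in OCI-AML3, and DESeq2 gave 0, 1 and 0 after adjustment. In NB-4, 17 fell (28.7%) and 9 rose (31%), with a median of -0.13, and in HL-60, 14 fell (15%) and 5 rose (17.5%), with a median of -0.06. Both of these medians turned positive when libraries were scaled by size alone, as given below. In NOMO-1, 12 fell (23.9%) and 10 rose (28.8%), with a median of 0.03, and 6 rose without untreated replicate 3. In MONO-MAC-6, 24 rose (31.8%) and 8 fell (30.5%), with a median of 0.19. Read against these shares of all genes, falls among the 45 were more frequent and rises less frequent in F-36P, HL-60, MV-4-11, NB-4, OCI-AML3 and THP-1, the reverse held in MONO-MAC-6, and the counts in NOMO-1 lay near those of all genes.

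**Figure D1:**
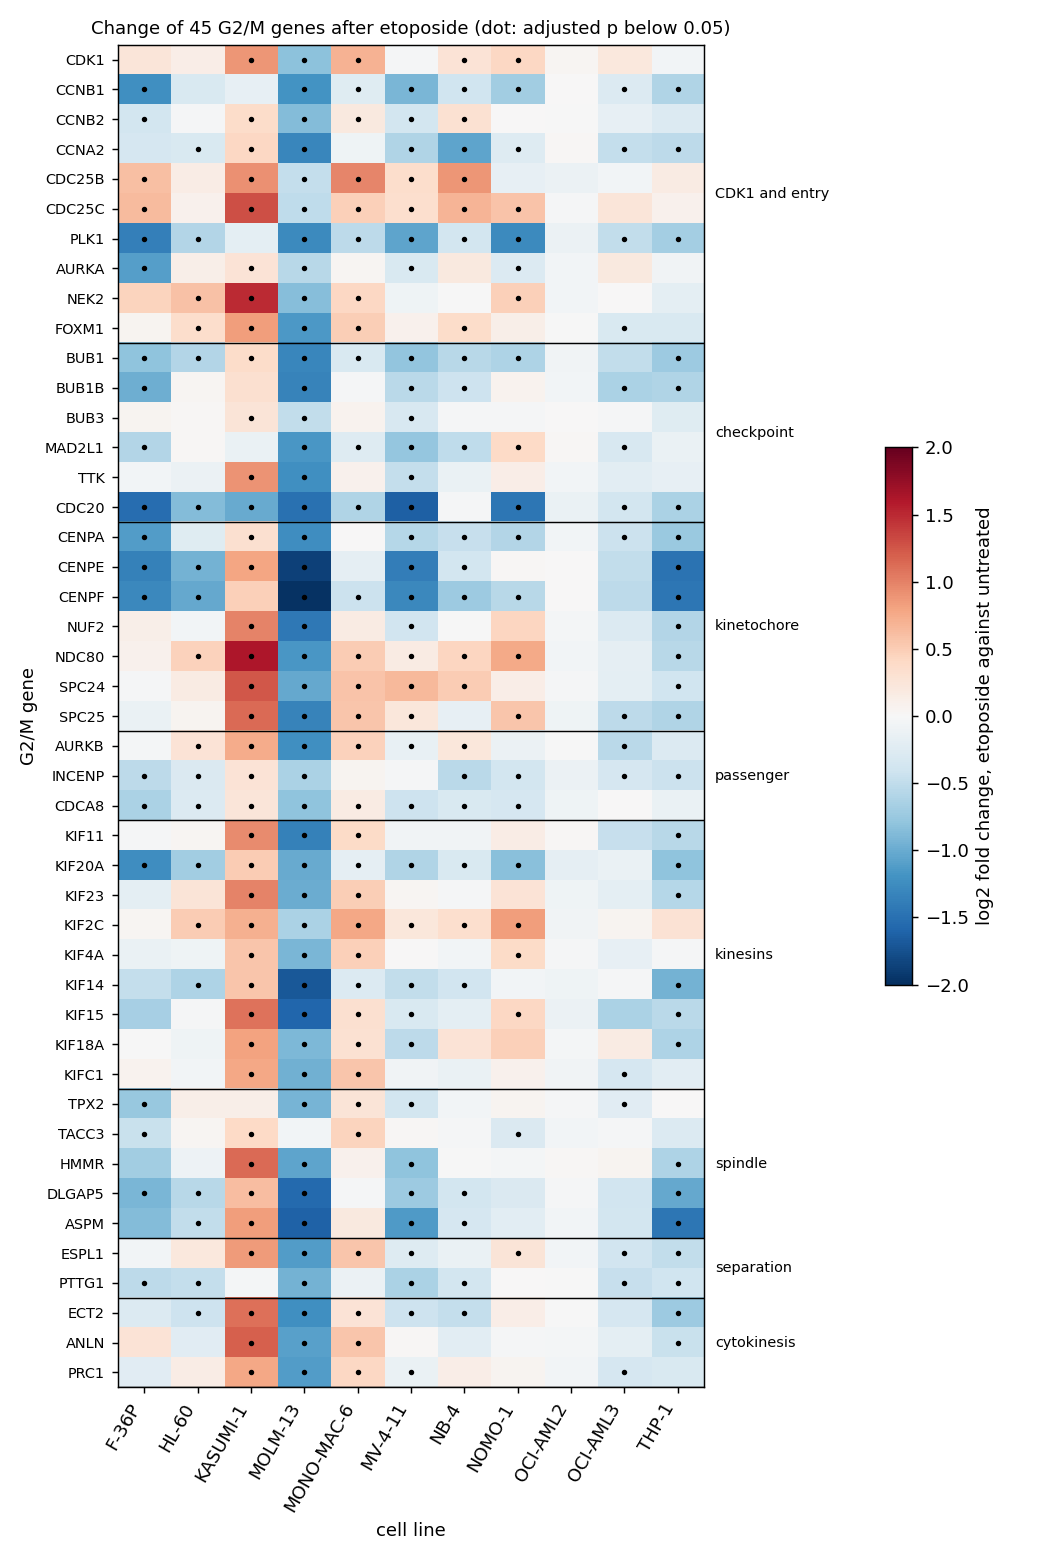
Log2 fold change (etoposide against untreated) of the 45 G2/M genes, in rows grouped by role, in 11 cell lines, in columns. Blue is lower and red higher after etoposide, and a dot marks an adjusted p below 0.05. The MOLM-13 column is blue with 44 dots, the KASUMI-1 column red with 37 dots upward, and the rows of PLK1 and CDC20 are blue in nearly every line.

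Fewer of these changes passed 2-fold. In MOLM-13, 28 genes fell by more than 2-fold, against 3.37% of all genes tested. In KASUMI-1, 9 rose by more than 2-fold, against 14.6%, and 1 fell, against 6.52%. The numbers that fell by more than 2-fold were 8 in F-36P (6.67% of all genes), 5 in MV-4-11 (2.63%), 4 in THP-1 (3.46%), 2 in NOMO-1 (4.43%), and 1 each in HL-60 (1.24%) and NB-4 (4.82%). In OCI-AML3 (1.36%) and MONO-MAC-6 (4.47%) 0 fell that far. Outside KASUMI-1, 0 of the 45 rose by more than 2-fold in any line, whereas of all genes tested 24.3% did in F-36P, 13.2% in NB-4, 12.5% in MV-4-11, 8.59% in MOLM-13, 8.53% in MONO-MAC-6, 8.34% in NOMO-1, 7.18% in OCI-AML3, 6.38% in THP-1 and 5.34% in HL-60.

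The summed reads of the 45 genes moved likewise. In MOLM-13 they made up 4860, 4760 and 4900 CPM in untreated and 2490, 2300 and 2370 CPM in etoposide libraries. In KASUMI-1 they made up 3600, 3710 and 3420 CPM before and 5230, 4950 and 5490 CPM after. The libraries of the 2 treatments did not overlap in either line. These sums were normalized within each line, so they are not compared between lines. In THP-1 the sum went from 7080 CPM ± 92.9 (SD, n = 3) to 5180 CPM ± 354 (SD, n = 3), and in MV-4-11 from 7400 CPM ± 56.9 (SD, n = 3) to 5580 CPM ± 204 (SD, n = 3). In NOMO-1 it went from 5360 CPM ± 370 (SD, n = 3) to 5180 CPM ± 375 (SD, n = 3), a difference smaller than the spread between libraries.

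**Figure D2:**
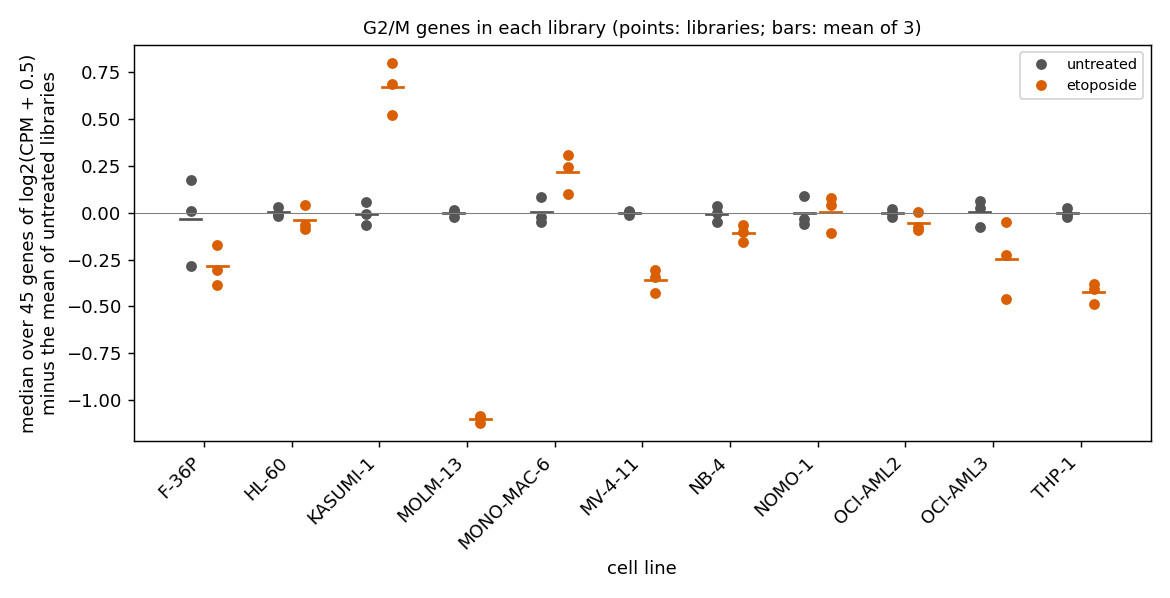
Median over the 45 G2/M genes of log2(CPM + 0.5) minus the mean of the untreated libraries of the line, for each library (points) with the mean of 3 libraries (bars), untreated in grey and etoposide in orange. The etoposide libraries of MOLM-13 lie between -1.123 and -1.084 and those of KASUMI-1 between 0.52 and 0.801, while those of F-36P overlap with untreated replicate 1 at -0.285.

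Some libraries of a group stood apart in these genes. The median over the 45 genes of the log2 level, relative to the mean of the untreated libraries of the line, was -0.285, 0.008 and 0.174 in the untreated F-36P libraries. On the same scale, which holds the change by etoposide as well, it was -0.228, -0.05 and -0.463 in the etoposide OCI-AML3 libraries. The spread was wider among the members with long transcripts. The 15 longest (5281 to 12471 bases of exon, CENPF, CENPE and ASPM among them) had medians of -0.50, -0.05 and 0.54 in the 3 untreated F-36P libraries, and the 15 shortest (1829 to 3362 bases, CDC20 and CCNB1 among them) had -0.10, 0.07 and -0.08. In the etoposide OCI-AML3 libraries the longest had -0.23, 0.00 and -0.70 and the shortest -0.26, -0.25 and -0.37. Over all genes tested put into 5 groups of equal size by length, the longest group minus the shortest differed less, at -0.07, -0.05 and 0.11 in untreated F-36P and 0.09, 0.08 and -0.07 in etoposide OCI-AML3. The part of transcript length in the results was not tested. Without F-36P untreated replicate 1, 27 genes fell in F-36P in place of 18, and without untreated replicate 3, 5 rose in place of 2.

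CDC20 and PLK1 were the most regularly lowered. CDC20 activates the anaphase-promoting complex, which ends mitosis by destroying cyclin B and securin, and PLK1 is a kinase needed to enter mitosis and to build the spindle. Each fell in 9 of 10 lines, OCI-AML2 aside, rose in none, and had a negative log2 fold change in all 10. CCNB1 (cyclin B1), the mitotic partner of CDK1, fell in 8 and was negative in all 10. CENPF, a kinetochore and nuclear matrix protein that peaks in G2, BUB1, a checkpoint kinase at the kinetochore, and KIF20A, a kinesin of the central spindle, fell in 8 as well. On the other side, CDC25C, the phosphatase that activates CDK1, KIF2C, a kinesin that depolymerizes microtubules at the kinetochore, and NDC80, which holds microtubules at the kinetochore, rose in 6 lines each. Past 2-fold, the lines with a fall numbered 5 for CDC20, 5 for CENPF, 4 for PLK1, 2 for CCNB1, 2 for KIF20A and 1 for BUB1. Lines with a rise past 2-fold numbered 1 for CDC25C, 1 for NDC80 and 0 for KIF2C. In all, 39 of the 45 genes rose in at least one line and fell in another, 6 fell in at least one line and rose in none (CCNB1, PLK1, BUB1B, CDC20, CENPF and PTTG1), and 0 rose without falling anywhere, since 44 fell in MOLM-13 and the other gene, TACC3, fell in F-36P and NOMO-1. Such counts over lines were not made for all genes, of which 15 to 30.5% fell and 16.1 to 35% rose in a line. They are therefore not shown to be particular to the G2/M genes. All 45 passed a test of the line by treatment interaction over 60 libraries of 10 lines, as did 74.5% of all genes tested.

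The 250 bases before the start of the 6 genes that fell in at least 8 lines are shown, searched for the elements named above. They are RefSeq sequences of build GRCh38.p14, read 5′ to 3′ on the strand of the gene, with matches to the cell cycle homology region (TTTGAA or TTCGAA) and to CCAAT, on either strand, in capitals. CCNB1 (ENSG00000134057.14) is shown at chr5:69166900-69167149 on the plus strand, PLK1 (ENSG00000166851.14) at chr16:23678639-23678888 on the plus strand and BUB1 (ENSG00000169679.14) at chr2:110678064-110678313 on the minus strand. CDC20 (ENSG00000117399.13) is shown at chr1:43358731-43358980, CENPF (ENSG00000117724.12) at chr1:214602945-214603194 and KIF20A (ENSG00000112984.11) at chr5:138178862-138179111, all on the plus strand.
CCNB1: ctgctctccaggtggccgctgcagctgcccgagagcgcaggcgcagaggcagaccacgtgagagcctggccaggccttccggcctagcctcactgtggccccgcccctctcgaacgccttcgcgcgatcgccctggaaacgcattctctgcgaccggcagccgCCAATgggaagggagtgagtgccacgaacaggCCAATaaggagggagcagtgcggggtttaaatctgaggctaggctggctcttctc
PLK1: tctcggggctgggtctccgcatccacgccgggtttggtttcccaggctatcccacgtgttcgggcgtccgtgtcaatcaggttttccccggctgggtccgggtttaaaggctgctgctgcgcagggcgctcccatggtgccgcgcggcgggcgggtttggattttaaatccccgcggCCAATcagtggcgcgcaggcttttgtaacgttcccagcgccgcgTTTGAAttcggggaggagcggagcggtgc
BUB1: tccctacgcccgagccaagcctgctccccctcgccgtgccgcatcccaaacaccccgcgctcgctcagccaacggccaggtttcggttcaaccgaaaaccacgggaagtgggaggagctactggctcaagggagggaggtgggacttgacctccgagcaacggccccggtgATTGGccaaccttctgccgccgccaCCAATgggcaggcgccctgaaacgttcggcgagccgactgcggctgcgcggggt
CDC20: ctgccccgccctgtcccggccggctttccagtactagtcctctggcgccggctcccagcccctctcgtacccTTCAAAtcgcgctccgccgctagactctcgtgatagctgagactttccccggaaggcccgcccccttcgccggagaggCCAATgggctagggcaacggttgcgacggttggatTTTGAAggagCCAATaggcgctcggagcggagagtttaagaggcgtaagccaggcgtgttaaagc
CENPF: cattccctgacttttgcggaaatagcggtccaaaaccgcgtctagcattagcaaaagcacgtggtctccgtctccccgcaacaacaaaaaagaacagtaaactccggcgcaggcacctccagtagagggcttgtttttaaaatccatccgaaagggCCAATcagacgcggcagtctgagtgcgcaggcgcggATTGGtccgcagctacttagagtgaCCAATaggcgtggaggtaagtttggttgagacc
KIF20A: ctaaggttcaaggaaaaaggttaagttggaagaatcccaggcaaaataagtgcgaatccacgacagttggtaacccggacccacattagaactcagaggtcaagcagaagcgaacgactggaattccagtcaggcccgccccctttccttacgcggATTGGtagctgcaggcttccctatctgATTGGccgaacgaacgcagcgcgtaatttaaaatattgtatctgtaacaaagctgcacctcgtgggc

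The 3 genes that rose in 6 lines are shown for comparison. CDC25C (ENSG00000158402.18) has 4 windows in the RefSeq table, and the one with the most matches is shown, at chr5:138331878-138332127 on the minus strand. NDC80 (ENSG00000080986.12) is shown at chr18:2571307-2571556 and KIF2C (ENSG00000142945.12) at chr1:44739587-44739836, both on the plus strand.
CDC25C: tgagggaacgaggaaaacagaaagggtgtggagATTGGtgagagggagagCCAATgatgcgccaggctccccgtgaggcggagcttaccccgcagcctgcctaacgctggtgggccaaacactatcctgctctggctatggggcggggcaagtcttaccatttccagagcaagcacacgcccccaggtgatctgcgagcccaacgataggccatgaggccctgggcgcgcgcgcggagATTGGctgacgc
NDC80: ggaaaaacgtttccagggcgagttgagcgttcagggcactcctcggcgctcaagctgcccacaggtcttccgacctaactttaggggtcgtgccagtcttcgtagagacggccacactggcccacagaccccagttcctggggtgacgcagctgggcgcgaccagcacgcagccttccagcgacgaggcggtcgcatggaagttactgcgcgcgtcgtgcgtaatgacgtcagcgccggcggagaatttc
KIF2C: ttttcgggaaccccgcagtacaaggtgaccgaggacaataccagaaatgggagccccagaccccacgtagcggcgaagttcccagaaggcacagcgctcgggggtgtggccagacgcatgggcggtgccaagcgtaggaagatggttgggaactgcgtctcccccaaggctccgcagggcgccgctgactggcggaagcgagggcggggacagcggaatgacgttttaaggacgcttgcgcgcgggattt

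All 6 genes that fell most often hold CCAAT in these bases, between 1 match in PLK1 and 3 in CENPF, and PLK1 and CDC20 also hold the letters of the cell cycle homology region. CDC25C holds CCAAT 3 times, while NDC80 and KIF2C hold neither motif in the bases shown. Counted to 50 bases past the start, NDC80 has 2 matches to the cell cycle homology region and BUB1, CENPF and CDC25C have 1 each. Windows from 250 bases before to 50 after the start were searched for 40 of the 45 genes. TTTGAA or TTCGAA occurred in 30 of 40 (75%), against 19.5% of 27305 genes with a window, and CCAAT in 32 of 40 (80%), against 39.7%. Both occurred in a window of 25 of 40 (62.5%), against 7.85%. A match to an E2F site (TTTGGCGC, TTTCGCGC or TTTCCCGC) occurred in 3 of 40 (7.5%), against 3.3%. Among the 32 genes with CCAAT the median of the genes' median log2 fold changes was -0.20, and among the 8 without it -0.07. For the cell cycle homology region these medians were -0.11 in the 30 genes with and -0.24 in the 10 without a match. The spread over genes was not set against these differences.

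CDC20 was lowered most in MV-4-11, from 206, 229 and 239 CPM in untreated to 68.1, 74.5 and 74.6 CPM in etoposide libraries. Its log2 fold change there was -1.63 (SE 0.064, edgeR adjusted p = 1.02e-14). In F-36P it went from 196, 178 and 151 CPM to 51.8, 63 and 68.9 CPM, and in NOMO-1 from 143, 137 and 162 CPM to 60.1, 47.9 and 53.3 CPM. In all 3 lines every etoposide library lay far below every untreated one. CDC20 was also the gene that fell in KASUMI-1, from 122, 135 and 140 CPM to 60.1, 73.2 and 63 CPM (log2 fold change -1.01, edgeR adjusted p = 2.03e-05), where most of the other members rose. In THP-1, which held the most CDC20, it went from 819, 823 and 884 CPM to 484, 650 and 500 CPM. NB-4 was the exception, with 161, 172 and 158 CPM before and 150, 168 and 162 CPM after, which overlap (log2 fold change -0.03, edgeR adjusted p = 0.788).

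PLK1 was lowered most in F-36P, from 136, 129 and 109 CPM to 42.7, 46.3 and 55.3 CPM (log2 fold change -1.37, SE 0.14, edgeR adjusted p = 2.51e-05). In NOMO-1 it went from 235, 220 and 252 CPM to 107, 87.1 and 98.7 CPM, and in MOLM-13 from 152, 147 and 137 CPM to 53.8, 64 and 62.3 CPM. None of these groups overlapped. In KASUMI-1, PLK1 was low when untreated, at 57, 64.5 and 64.5 CPM, and stood at 51.8, 52.6 and 57.7 CPM after etoposide, a difference that did not pass the test (edgeR adjusted p = 0.0812). In HL-60 the etoposide libraries were spread, at 96.5, 133 and 70.8 CPM, below the untreated ones at 147, 141 and 162 CPM.

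CCNB1 followed PLK1, and CDK1 did not follow CCNB1. In F-36P, CCNB1 went from 223, 267 and 256 CPM to 106, 102 and 112 CPM (log2 fold change -1.22, edgeR adjusted p = 1.37e-05), while CDK1 stood at 96.6, 141 and 168 CPM before and 183, 153 and 144 CPM after (edgeR adjusted p = 0.292). In MONO-MAC-6, CCNB1 fell from 174, 160 and 151 CPM to 140, 132 and 136 CPM, and CDK1 rose from 137, 117 and 125 CPM to 214, 191 and 206 CPM (log2 fold change 0.69, edgeR adjusted p = 2.14e-06). The cyclin and its kinase thus moved in opposite directions in the same libraries after TMM normalization. With libraries scaled by size alone, the fall of CCNB1 there no longer passed the test. In KASUMI-1, CDK1 rose from 182, 174 and 138 CPM to 314, 289 and 303 CPM, and CCNB1 was 149, 140 and 152 CPM before and 132, 136 and 126 CPM after (edgeR adjusted p = 0.0837). Over the 10 lines CDK1 rose in 4, namely KASUMI-1, MONO-MAC-6, NB-4 and NOMO-1, and fell in MOLM-13, from 132, 132 and 138 CPM to 84.9, 70.6 and 72.5 CPM. The other cyclins differed as well. CCNA2 (cyclin A2), which acts before cyclin B, fell in 7 lines, most in MOLM-13 (log2 fold change -1.30), and in NB-4 it went from 173, 149 and 160 CPM to 88.1, 73.3 and 70.2 CPM. CCNB2 (cyclin B2) fell in 3 lines and rose in 3.

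**Figure D3:**
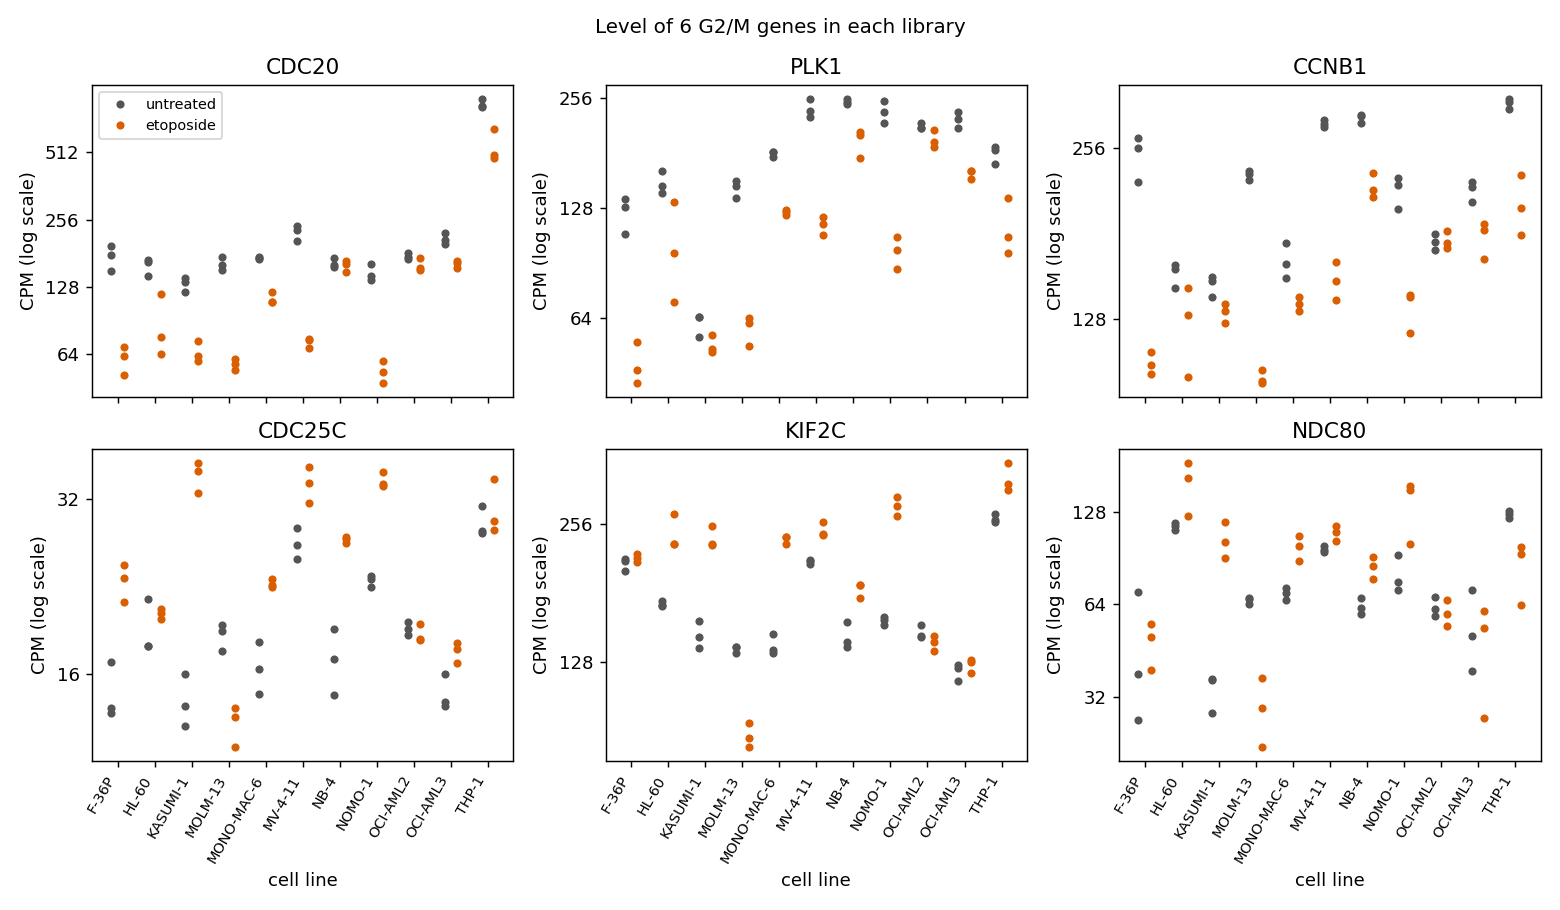
CPM (log scale) of CDC20, PLK1, CCNB1, CDC25C, KIF2C and NDC80 in each library of 11 cell lines, untreated in grey and etoposide in orange. The upper row shows 3 genes lowered in 8 or 9 lines, and the lower row 3 genes raised in 6 lines, all of which fell in MOLM-13.

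The activators of CDK1 went the other way from PLK1 and CCNB1 in several lines. CDC25C was raised most in KASUMI-1, from 14.1, 13 and 16 CPM to 36.9, 35.8 and 32.8 CPM (log2 fold change 1.29, edgeR adjusted p = 7.18e-06). In NB-4 it rose from 14.7, 19.1 and 17 CPM to 26.9, 27.5 and 27.3 CPM. CDC25B, a phosphatase that starts CDK1 activation, rose in 5 lines, most in MONO-MAC-6, from 55.8, 60 and 58.4 CPM to 113, 117 and 114 CPM (log2 fold change 0.98, edgeR adjusted p = 2.21e-08). In F-36P, CDC25B and CDC25C were the only members that rose, with log2 fold changes of 0.60 and 0.64. Both fell in MOLM-13, by 0.47 and 0.51 on the log2 scale, less than the median member there.

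FOXM1, the transcription factor that drives many of the other members, rose in 4 lines and fell in 2. In KASUMI-1 it rose from 103, 109 and 111 CPM to 186, 192 and 200 CPM (log2 fold change 0.84, edgeR adjusted p = 1.12e-05). In MOLM-13 it fell from 105, 99.4 and 93.1 CPM to 40.1, 49.8 and 43.6 CPM (log2 fold change -1.15, edgeR adjusted p = 5.63e-06). In MV-4-11, where 29 members fell, it stood at 176, 182 and 173 CPM before and 181, 188 and 198 CPM after (edgeR adjusted p = 0.148). NEK2, a kinase that separates the centrosomes, had the largest rise of the genes of mitotic entry, in KASUMI-1, from 12.3, 14.1 and 11.2 CPM to 33.4, 32.7 and 39.7 CPM (log2 fold change 1.49, edgeR adjusted p = 6.76e-06). AURKA, a centrosome kinase that activates PLK1, fell by more than 2-fold in F-36P, from 109, 128 and 130 CPM to 55.9, 55.7 and 59.9 CPM.

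The genes of the spindle checkpoint, which delays anaphase until chromosomes are attached, fell more often than they rose. Over the 6 genes and 10 lines, 33 of 60 comparisons were falls and 4 were rises, where 15 to 30.5% of all genes fell and 16.1 to 35% rose in a line. CDC20, described above, is counted among the 6 and made up 9 of the falls and 0 of the rises. BUB1 was lowered most in MOLM-13, from 172, 163 and 176 CPM to 79.4, 57.7 and 69.3 CPM. BUB1B, a kinase-like part of the complex that holds back CDC20, fell in 6 lines, and MAD2L1, another part of it, fell in 6 and rose in NOMO-1, from 184, 158 and 152 CPM to 185, 233 and 234 CPM. BUB3, which carries BUB1 to the kinetochore, fell in MOLM-13 and MV-4-11 and rose in KASUMI-1. TTK, the kinase that starts the checkpoint, did the same, and had the largest rise of the 6 genes, in KASUMI-1, from 51.2, 50.1 and 33.3 CPM to 85.9, 71.7 and 93 CPM (log2 fold change 0.90, edgeR adjusted p = 0.00104).

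At the kinetochore, where microtubules hold the chromosome, the genes split. CENPF, CENPE and CENPA fell in 8, 6 and 7 lines, and NDC80 and SPC24 rose in 6 and 4 and fell in 2 each. NUF2 fell in 3 and rose in 1, and SPC25 fell in 3 and rose in 4. CENPF had the largest fall of any member, in MOLM-13, from 239, 235 and 319 CPM to 88.5, 49.2 and 64.2 CPM (log2 fold change -1.98, SE 0.192, edgeR adjusted p = 1.85e-05). CENPE, a kinesin that moves chromosomes to the spindle equator, went in THP-1 from 193, 150 and 183 CPM to 78, 46.3 and 65.2 CPM. NDC80 had the largest rise of any member, in KASUMI-1, from 36.7, 36.2 and 28.3 CPM to 102, 90.5 and 119 CPM (log2 fold change 1.62, SE 0.133, edgeR adjusted p = 6.96e-06). Its partners NUF2, SPC24 and SPC25, which with it form the NDC80 complex, also rose there, with log2 fold changes of 0.99, 1.24 and 1.13. In MV-4-11, 4 of the 7 kinetochore genes fell and 3 rose. CENPE and CENPF fell there by more than 2-fold. SPC24, of the NDC80 complex, rose from 54.4, 55.4 and 60.9 CPM to 81.2, 93.7 and 93.2 CPM. In THP-1 all 7 kinetochore genes fell, and in MOLM-13 all 7 fell by more than 2-fold.

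The chromosomal passenger genes, whose proteins correct faulty attachments and later mark the site of division, passed 2-fold in 1 case, that of AURKB in MOLM-13. AURKB, the kinase of the complex, fell most in MOLM-13, from 61.6, 63.2 and 59.8 CPM to 21.2, 28.5 and 28.7 CPM (log2 fold change -1.23, edgeR adjusted p = 1.14e-05), and rose most in KASUMI-1, from 33.3, 38 and 37.5 CPM to 52.9, 66.2 and 62.7 CPM. The scaffold INCENP fell in 7 lines, by at most 0.63 on the log2 scale, and CDCA8 (borealin) in 6. AURKB fell in 3 lines and rose in 4, so the kinase and its scaffold went different ways in HL-60 and NB-4, where INCENP fell and AURKB rose.

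Among the 9 kinesins, motors that build and move the spindle, KIF2C and KIF20A stood at the 2 ends. KIF2C rose in 6 lines and fell in MOLM-13, and in NOMO-1 it went from 160, 154 and 158 CPM to 281, 293 and 266 CPM (log2 fold change 0.83, edgeR adjusted p = 4.5e-06). KIF20A fell in 8 lines, most in F-36P, from 82.9, 89.4 and 94.7 CPM to 36.1, 35.2 and 40.7 CPM. The largest fall of a kinesin was that of KIF14, which acts in cell division, in MOLM-13, from 52.9, 53.8 and 61.7 CPM to 20.7, 14.9 and 16.9 CPM (log2 fold change -1.69, edgeR adjusted p = 3.11e-06). The largest rise was that of KIF15, a spindle kinesin, in KASUMI-1, from 21.9, 25.6 and 14.9 CPM to 45.4, 31.9 and 55.4 CPM (log2 fold change 1.09, edgeR adjusted p = 0.00228). All 9 rose in KASUMI-1 and all 9 fell in MOLM-13. KIF11, KIF23, KIF4A, KIF18A and KIFC1 changed in 4 or 5 of the 10 lines each, MOLM-13 included.

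Of the spindle factors, ASPM and DLGAP5 were lowered more than TPX2, TACC3 and HMMR. ASPM, a protein of the spindle poles, fell in MOLM-13 from 110, 113 and 135 CPM to 51.9, 27.9 and 37.1 CPM (log2 fold change -1.62, edgeR adjusted p = 5.04e-05), and in THP-1 from 181, 157 and 159 CPM to 67.6, 41.4 and 74.2 CPM. HMMR rose in KASUMI-1 from 49.1, 46.7 and 33.1 CPM to 99.9, 77.3 and 106 CPM (log2 fold change 1.13, edgeR adjusted p = 0.000234). TPX2, which activates AURKA on the spindle, fell in 4 lines, and TACC3, which stabilizes the microtubules of the spindle, was the 1 member that did not pass in MOLM-13, at 202, 200 and 188 CPM before and 174, 205 and 188 CPM after. Of the genes of chromosome separation, PTTG1 (securin) fell in 7 lines and rose in none, while ESPL1 (separase), the protease that securin holds back, fell in 4 and rose in 3. ESPL1 went in MOLM-13 from 68.6, 72.4 and 67.9 CPM to 29.6, 36 and 31.4 CPM, and in KASUMI-1 from 91.9, 91.7 and 99.7 CPM to 180, 155 and 177 CPM. Of the genes of cytokinesis, ECT2, which switches on the contractile ring, fell in MOLM-13 from 55.2, 52.3 and 58.6 CPM to 28.1, 20.1 and 23.2 CPM, and ANLN (anillin), which anchors the ring, rose in KASUMI-1 from 68.4, 68.2 and 47.1 CPM to 151, 117 and 154 CPM. PRC1, which bundles the microtubules of the central spindle, fell in 3 lines and rose in 2.

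Whether a line changed a gene more than the others did was tested in 1 fit of 60 libraries, as the change in the line minus the mean change in the other 9. In MOLM-13, 44 of the 45 lay below the others (12.6% of all genes tested did), with a median difference of -1 on the log2 scale, and in KASUMI-1, 43 lay above (15.3%), with a median difference of 0.94. In MONO-MAC-6, 25 lay above (4.71%), with 16 to 19 when the libraries of 1 number were left out, and 0 below (11.1%). In THP-1, 18 lay below (14.2%) and 2 above (11%), but 9 lay below without the libraries numbered 1 and 5 without those numbered 2. In F-36P, 13 lay below (17.6%) and 2 above (15.9%). In HL-60, 10 lay above (9.52%) and 1 below (7.55%), with 3 to 7 above when the libraries of 1 replicate number were left out. In NB-4, 11 lay above (10.5%), with 6 to 8 when a number was left out, and 2 below (9.05%). In NOMO-1, 10 lay above (8.74%), with 4 to 17 when a number was left out, and 5 below (15.1%). In OCI-AML3, 9 lay below (9.81%) and 5 above (6.73%), with 2 to 9 above when a number was left out. In MV-4-11, 6 lay below (5.45%), with 1 to 3 when a number was left out, and 2 above (7.75%). The counts of MONO-MAC-6, THP-1 and the last 5 lines thus changed with the libraries used, as did the count above in F-36P (0 to 3). The largest single difference was that of CENPE in KASUMI-1, 1.70 above the mean change of the other 9 (SE 0.296, edgeR adjusted p = 6.9e-06), and the largest downward was that of NDC80 in MOLM-13, at -1.51 (SE 0.228, edgeR adjusted p = 5.8e-07). The 10 contrasts share libraries and are not independent.

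**Figure D4:**
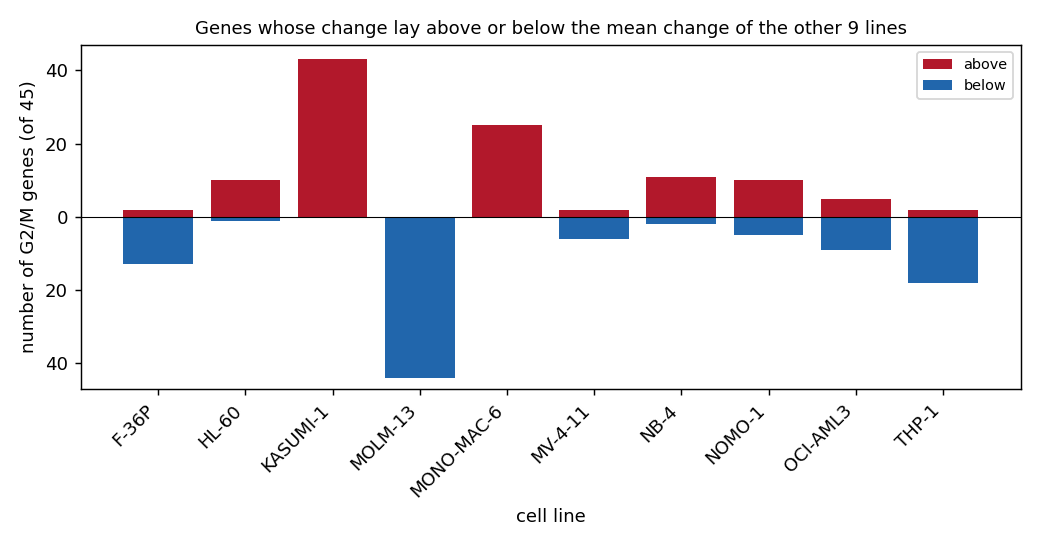
Number of the 45 G2/M genes whose change after etoposide lay above (red, upward) or below (blue, downward) the mean change of the other 9 cell lines, at an adjusted p below 0.05. MOLM-13 has 44 below and KASUMI-1 43 above, and MONO-MAC-6 has 25 above.

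CDKN1A, the brake on cyclin-dependent kinases named above, rose in all 11 lines. In MOLM-13 it went from 220, 249 and 242 CPM to 1660, 2060 and 2100 CPM and in OCI-AML3 from 33.2, 36.6 and 41.1 CPM to 1500, 1550 and 1830 CPM, and the libraries of the 2 treatments did not overlap in either line. Its log2 fold change was 3.04 in MOLM-13 (SE 0.1, edgeR adjusted p = 1.91e-07) and 5.46 in OCI-AML3 (SE 0.119, edgeR adjusted p = 1.92e-07), beside medians of -1.11 and -0.28 over the G2/M genes. OCI-AML2 aside, it was 1.86 or more in each of the 10 lines. Among these were KASUMI-1 and MONO-MAC-6, where the medians over the G2/M genes were 0.74 and 0.19. The untreated level of CDKN1A differed widely between lines, however. Normalized over the 33 untreated libraries, it was 246 CPM in MOLM-13, 30.4 CPM in MONO-MAC-6, 5.01 CPM in KASUMI-1 and 0.214 CPM in HL-60. Like fold changes therefore stand for unlike amounts of this RNA. The part of CDKN1A in the change of the G2/M genes was not tested.

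**Figure D5:**
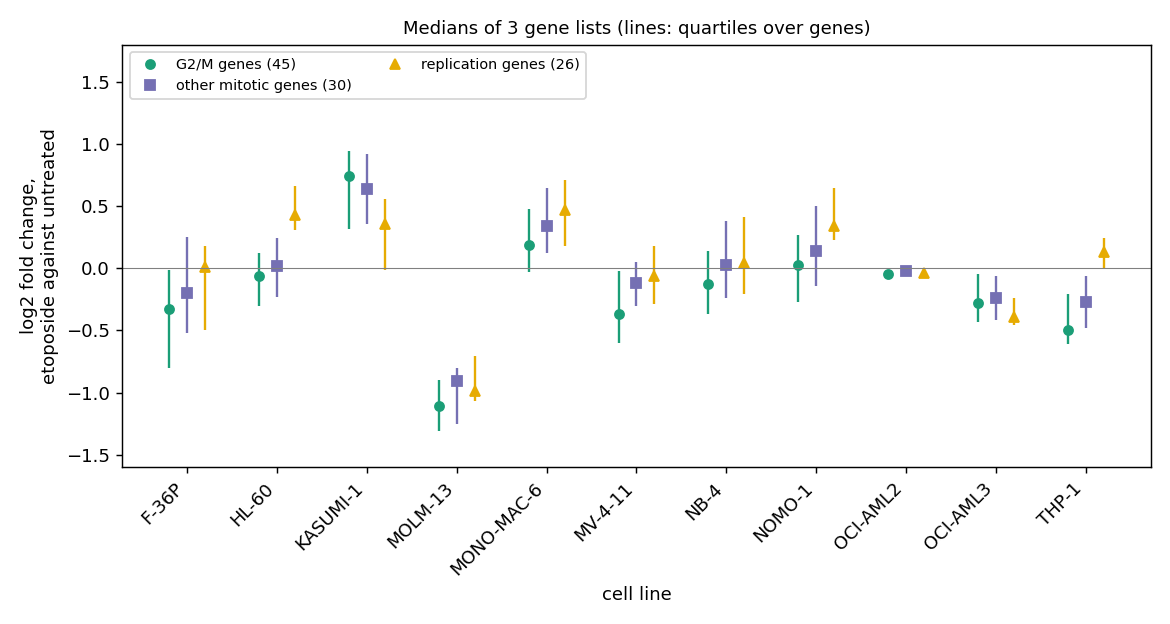
Median log2 fold change (etoposide against untreated), with the quartiles over genes as lines, of the 45 G2/M genes, 30 other mitotic genes and 26 replication genes, in 11 cell lines. The G2/M genes have their lowest median in MOLM-13, -1.11, where the replication genes have -0.99, and their highest in KASUMI-1, 0.74, where the replication genes have 0.36.

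Genes of DNA replication, which are expressed earlier in the cycle, told the lines apart in another way. The list of 26 also holds CCNE1, CCNE2 and E2F1, which regulate the entry into replication. The shares of all genes that rose or fell in each line are those given above. In MOLM-13 all 26 fell (median -0.99), and in OCI-AML3, 20 fell and 2 rose (median -0.39), as the G2/M genes also leaned downward. In MONO-MAC-6 and KASUMI-1, 21 and 16 rose (medians 0.47 and 0.36), as the G2/M genes also leaned upward. In THP-1, where 27 G2/M genes fell, 3 replication genes rose and 1 fell (median 0.13). In HL-60 and NOMO-1, 19 and 20 rose and 0 fell (medians 0.43 and 0.34), beside G2/M medians of -0.06 and 0.03. In F-36P, MV-4-11 and NB-4 they moved both ways, with medians of 0.01, -0.06 and 0.04. Examples of genes that rose often are CDC6, which loads the replicative helicase and rose in 8 lines, GINS4, a part of that helicase, which also rose in 8, and CCNE2 (cyclin E2), which rose in 7 with a median log2 fold change of 1.41. Other genes of the list went more often the other way. MCM2, MCM3, MCM4, MCM7, GINS1 and POLA1 each fell in 5 lines and rose in 1 to 3.

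Of 30 other mitotic genes, 29 fell in MOLM-13 (median -0.91), 24 rose in KASUMI-1 (median 0.64) and 22 rose in MONO-MAC-6 (median 0.34), where the members leaned the same way. In NB-4, 12 rose (31% of all genes did) and 7 fell (28.7%), with a median of 0.03. In NOMO-1, 13 rose (28.8%) and 5 fell (23.9%), with a median of 0.14. Of the members, 9 rose and 17 fell in NB-4, and 10 rose and 12 fell in NOMO-1. The order of the members in NB-4 reversed with libraries scaled by size alone, as given below. In NOMO-1 their counts lay near those of all genes. In MV-4-11, 13 fell and 5 rose (median -0.12), and in THP-1, 12 fell and 1 rose (median -0.27), beside member medians of -0.37 and -0.50. CKS2, a subunit of the CDK1 complex, fell in all 10 lines, and ARHGAP11A and PSRC1 fell in 9, while MELK and SKA1, the latter a kinetochore gene, rose in 7. The 8 condensin genes, which compact chromosomes, all fell in MOLM-13 (median -0.87), and 7 rose in KASUMI-1 (median 0.68). Of the 14 genes of the anaphase-promoting complex, ANAPC1, ANAPC15 and CDC27 fell most often, in 9 of 10 lines, as did their activator CDC20. The others fell in 0 to 6 lines. FZR1, another activator, and ANAPC2 fell in 0 and rose in 3, and ANAPC13 fell in 0 and rose in 1. The medians of the 14 lay between -0.38 in F-36P and -0.09 in MONO-MAC-6, OCI-AML2 aside. The 10 genes of MuvB and its partners had medians between -0.33 in MOLM-13 and 0.35 in NOMO-1, and MYBL2, which works with MuvB to switch mitotic genes on, rose in 8 lines and fell in 2. Of the brakes on CDK1, the kinase WEE1 fell in 5 lines and rose in none, and its relative PKMYT1 rose in 5 and fell in 1. CHEK1 rose in 5 and fell in 3, CHEK2 fell in 3, GADD45A rose in 9 and fell in 1, and SFN was not tested in any line for lack of reads.

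OCI-AML2, whose etoposide libraries the study discarded after quality control, was analysed apart. By edgeR, 0 of the 45 genes rose (0.0221% of all genes tested did) and 0 fell (0%), and DESeq2 also gave 0. At an unadjusted p below 0.05, edgeR and DESeq2 gave 3 genes each, all lower, and edgeR gave 8 without etoposide replicate 2 and 7 without etoposide replicate 3. CDKN1A rose there from 44.7, 48.1 and 44.7 CPM to 80, 73.1 and 75 CPM, so the libraries of the 2 treatments differed, while the median log2 fold change of the G2/M genes was -0.05.

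The untreated lines differed in the level of these genes, normalized over the 33 untreated libraries. The sum over the 45 genes ranged from 3580 CPM ± 121 (SD, n = 3) in KASUMI-1 to 6920 CPM ± 69.5 (SD, n = 3) in MV-4-11, with THP-1 next at 6880 CPM ± 96.6 (SD, n = 3), within the spread of MV-4-11. After them, and apart from them, came NB-4 (6050 CPM ± 176, SD, n = 3), OCI-AML2 (5870 ± 129), OCI-AML3 (5570 ± 435) and HL-60 (5420 ± 107), each of whose neighbours lay within about the sum of their SDs. MOLM-13 (5040 ± 80.9), MONO-MAC-6 (4940 ± 243), NOMO-1 (4800 ± 329) and F-36P (4400 ± 410) followed and overlapped in the same way. KASUMI-1 had the lowest untreated level of 24 of the 45 genes, and it is also the line in which 37 rose. The share of all genes that were lowest in KASUMI-1 was not counted. A link between the low untreated level and the rises was not tested. HMMR had the widest range, from 22.9 CPM in F-36P to 245 CPM in THP-1, a ratio of 10.7, followed by NEK2 (ratio 6.66) and CDC20, from 132 CPM in KASUMI-1 to 820 CPM in THP-1 (ratio 6.21). CDCA8 and TPX2 had the narrowest, with ratios of 1.58 and 1.62.

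The direction of the smaller changes depended on how the libraries were scaled. Scaling by library size alone raised the median change of all genes by 0.25 on the log2 scale in F-36P, 0.21 in NB-4, 0.17 in KASUMI-1, 0.13 in MV-4-11, 0.12 in MONO-MAC-6 and 0.10 in HL-60. Under it the G2/M genes that fell and rose numbered 14 and 6 in F-36P, 11 and 9 in HL-60, 9 and 12 in NB-4, 5 and 31 in MONO-MAC-6 and 26 and 10 in MV-4-11. The medians of HL-60 and NB-4 then were 0.05 and 0.07. The falls in MOLM-13 and the rises in KASUMI-1 stayed on their side, with medians of -1.13 and 0.91. The fall of CCNB1 in MONO-MAC-6 and that of PLK1 in NB-4 then no longer passed the test.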

How the data were processed

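The authors aligned single-end reads of a stranded mRNA kit to GRCh38 with STAR 2.5.3a, after FastQC 0.11.5, and deposited raw read counts per gene for each of 66 libraries (per the labels, edgeR 3.20.1 was also named). The column of counts without regard to strand was used, so reads of a gene and of an overlapping antisense gene cannot be told apart. The deposited counts were joined to gene names by identifier, and 56948 of 57992 identifiers were named. Cell line names are hyphenated here as in the study, where the labels write them without hyphens, and samples were grouped by the labels.

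Each line was fitted by itself with edgeR 4.0.16 in R 4.3.3: filterByExpr (minimum count 10, total 15), TMM normalization, glmQLFit and glmQLFTest, and Benjamini-Hochberg adjustment over all genes tested, with 0.05 as the threshold. CPM were computed with TMM factors. Lines were compared in 1 fit of 60 libraries, without OCI-AML2. The procedure was tested on simulated data for MV-4-11 (13998 genes), where 73 of 88 genes changed by 1 on the log2 scale and 108 of 112 changed by 2 were recovered. Alternatives were RLE and library size scaling, no filter, DESeq2 1.42.0, 1 fit of 66 libraries, a replicate block and leaving out each library. Replicates differed by more than sampling noise in every line (lowest chi-square per degree of freedom 2.049). P-values measure the spread between these replicate cultures.

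The 45 genes, the other lists and the tests were chosen with earlier results of these data known. All members could be named, with values for PLK1, CCNB1, CDK1, CDC20, FOXM1 and the largest fall and rise of each role, and further examples were chosen after their values were seen. Replicate numbers paired the libraries in MOLM-13 and NB-4, where all 3 correlations of same-numbered deviations were above 0.1 (lowest 0.148 and 0.182), as a hint from the data. A further gene list and the level of 1 gene are not reported here.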

Additional observations from a re-analysis of the deposited data

Results flagged for a closer look

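The change of many G2/M genes after etoposide differed between a cell line and the mean of the other 9 in an edgeR contrast at an adjusted p below 0.05. In MOLM-13, 44 lay below, with 42 to 43 when the libraries of 1 replicate number were left out. In KASUMI-1, 43 lay above, with 42 to 43 left on the same side. In MONO-MAC-6, 25 lay above (16 to 19 with a number left out). In THP-1, 18 lay below (5 to 18) and 2 above (0 to 1), and in F-36P, 13 lay below (12 to 14) and 2 above (0 to 3). In OCI-AML3, 9 lay below (8 to 11) and 5 above (2 to 9), and in MV-4-11, 6 below (1 to 3) and 2 above (1 to 2). In NB-4, 11 lay above (6 to 8) and 2 below (1), in HL-60, 10 above (3 to 7) and 1 below (0 to 1), and in NOMO-1, 10 above (4 to 17) and 5 below (4 to 5). Since each line had its own concentration of etoposide, the line and the concentration cannot be told apart.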

How the results depend on the processing

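Of 585 alternative values for 54 results, 476 stayed close to the value reported, 107 moved and 2 reversed; of 5940 values for single genes, 5576 kept their call, 217 lost it, 147 gained it and 0 reversed. The cause of the moves was not tested beyond what each setting does by construction. Replicates number 3 a group, which limits small changes, and reads per library ranged from 17997404 to 24101670, with all etoposide libraries of MV-4-11 deeper than its untreated ones.

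With a fold change above 2 required as well, the genes that fell numbered 8 in F-36P, 1 in HL-60, 28 in MOLM-13, 0 in MONO-MAC-6, 5 in MV-4-11, 1 in NB-4, 2 in NOMO-1, 0 in OCI-AML3 and 4 in THP-1, and those that rose 9 in KASUMI-1 and 0 in NOMO-1, F-36P, HL-60, NB-4, MV-4-11 and MONO-MAC-6. With library size alone, 6 rose in F-36P, 9 in HL-60, 10 in MV-4-11, 1 in OCI-AML3 and 1 in THP-1, and 5 fell in MONO-MAC-6 and 9 in NB-4. The medians then were -0.07 in F-36P, 0.91 in KASUMI-1, 0.31 in MONO-MAC-6, -0.24 in MV-4-11 and -0.44 in THP-1, and they reversed to 0.05 in HL-60 and 0.07 in NB-4. In 1 fit of 66 libraries, 4 rose in F-36P, 1 rose in THP-1 and 4 fell in MONO-MAC-6, with medians of -1.05 in MOLM-13, -0.32 in MV-4-11 and -0.08 in NB-4. RLE and DESeq2 each gave 1 rise in THP-1. With no filter the median of MOLM-13 was -1.14.

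Against the other 9 lines, no filter gave 1 above in F-36P, 0 below in HL-60, 1 above in MV-4-11, 1 below in NB-4 and 1 above in THP-1. With a difference above 2-fold as well, 21 lay above in KASUMI-1 and 23 below in MOLM-13, 1 below and 0 above in F-36P, 0 below and 1 above in NB-4, 0 above in MONO-MAC-6, and 0 both ways in HL-60, MV-4-11, NOMO-1, OCI-AML3 and THP-1. With 66 libraries, 1 lay above in THP-1.

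With the replicate block, 44 fell in MOLM-13 and 18 fell and 12 rose in NB-4, the lines whose numbers pair. Elsewhere the block moved no count within a line by over 1.5 times. Against the other 9, the block gave 1 above in MV-4-11, 1 below in NB-4, 6 above in NOMO-1, and 9 below and 1 above in THP-1. Each sample correlated best with its own number in MOLM-13, NB-4 and OCI-AML2.

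Leaving out each library in turn, the genes that rose numbered 2 to 5 in F-36P (5 without untreated replicate 3), 3 to 7 in HL-60 (3 without untreated replicate 2 or etoposide replicate 3), 6 to 15 in NOMO-1 (6 without untreated replicate 3), 0 to 2 in OCI-AML3 and 0 to 1 in THP-1. Medians ranged from 0.61 to 0.74 in KASUMI-1, -1.14 to -1.1 in MOLM-13, -0.13 to -0.07 in NB-4 (-0.07 without etoposide replicate 2), -0.08 to -0.01 in OCI-AML2, -0.35 to -0.12 in OCI-AML3 (-0.12 without etoposide replicate 3) and -0.54 to -0.38 in THP-1. Leaving out all libraries of a number, the genes above the other 9 numbered 0 to 3 in F-36P, 3 to 7 in HL-60, 16 to 19 in MONO-MAC-6, 1 to 2 in MV-4-11, 6 to 8 in NB-4, 4 to 17 in NOMO-1, 2 to 9 in OCI-AML3 and 0 to 1 in THP-1, and those below numbered 0 to 1 in HL-60, 1 to 3 in MV-4-11, 1 in NB-4 and 5 to 18 in THP-1.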
